A study of Homo sapiens with 12 samples.

Results

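A549, an established human non-small cell lung cancer line, was studied here in its FXR knockdown form, 3 days after ionizing radiation or after sham treatment. Of the 12 libraries of the series, the 6 of the shFXR line were taken by their labels: 3 sham libraries and 3 irradiated libraries. All 6 stably carry short hairpin RNA against FXR, so the knockdown is common to both groups and the treatment is what separates them. The other 6 libraries come from A549 cells with a control hairpin (shControl), 3 of them sham treated and 3 taken 3 days after radiation, and were used to test whether a response differed between the lines. They also entered the joint fit, so the filter, the scaling and the spread behind each call rest on all 12 libraries. The submitters call the 3 libraries of a group biological replicates. The radiation dose, the time at which sham cells were collected, the number of hairpins and whether each line is a pool or 1 clone were not given in the sources used here.

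Ionizing radiation breaks DNA, and the p53 protein that is stabilised in response switches on genes that halt the cell cycle, chiefly the inhibitor p21. In a halted cell the RB family proteins and the DREAM repressor complex shut down genes for DNA replication and mitosis, which carry E2F elements or CHR elements in their promoters. Cells that stay arrested after damage often enlarge, build up lysosomes and release matrix proteins, proteases, growth factors and cytokines, a state described as senescence-like. FXR, taken here as NR1H4, is a nuclear receptor for bile acids.

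Levels are given as CPM, a gene's share of its library's counts, after TMM factors aligned the bulk of genes between libraries. Changes are log2 fold changes of irradiated over sham cells ± standard error from edgeR's quasi-likelihood fit, and a gene was called at a Benjamini-Hochberg adjusted p under 0.05 over the 16053 genes tested. Library totals were 17.4 to 18.2 M counts in sham and 17.1 to 18.3 M in irradiated shFXR cells. The first principal component of the 6 libraries held 56.6% of the variance and put the sham libraries between -36.2 and -24 and the irradiated ones between 27.5 and 32.3. NR1H4 itself was at 5.08, 4.57 and 2.81 CPM in the sham and 2.84, 3.1 and 3.05 CPM in the irradiated libraries, overlapping groups with a log2 fold change of -0.47 ± 0.20 (adjusted p = 0.1). Of 8 leukocyte markers, 6 had under 10 counts in each of the 6 libraries, as did 5 of 6 endothelial and 5 of 5 erythroid markers. The exceptions were CD14 (145 to 290 counts), ITGAM (66 to 123) and KDR (13 to 36). CD14 and KDR were called higher, and both calls ended under several alternatives. The 5 epithelial markers summed to 2702.8 to 3536.6 CPM of the library total in sham and 2459.3 to 2676.6 in irradiated libraries. KRT8 and KRT18 had the most counts of the 5, and KRT19 was called higher. The mitochondrial genome gave 10 to 11.2% of sham counts and 12.3 to 13.1% of irradiated counts, and with its genes left out the 212 remaining named genes kept their calls. In bulk RNA, fewer cells of a kind and less RNA per cell cannot be told apart, and this holds for each level below.

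Radiation changed 3379 genes in shFXR cells, 21% of those tested. Of these, 1744 rose (10.9% of genes tested) and 1635 fell (10.2%). Most changes were small, with a median size of 0.5 on the log2 scale among genes that rose and 0.4 among genes that fell, but the tail was one-sided: 110 genes fell at least 4-fold and 25 rose at least 4-fold. Of the 110, 72 belonged to the lists of replication and mitosis genes used here, as did 31 of the 46 that fell at least 8-fold. The groups of 3 did not overlap for 43.7% of all genes tested, so separation of the groups alone says little about a single gene. The balance between higher and lower genes turned under other settings: when libraries were scaled by their total counts only, 1335 genes rose and 1863 fell. With the 6 shFXR libraries fitted alone 5065 genes were called.

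**Figure D1:**
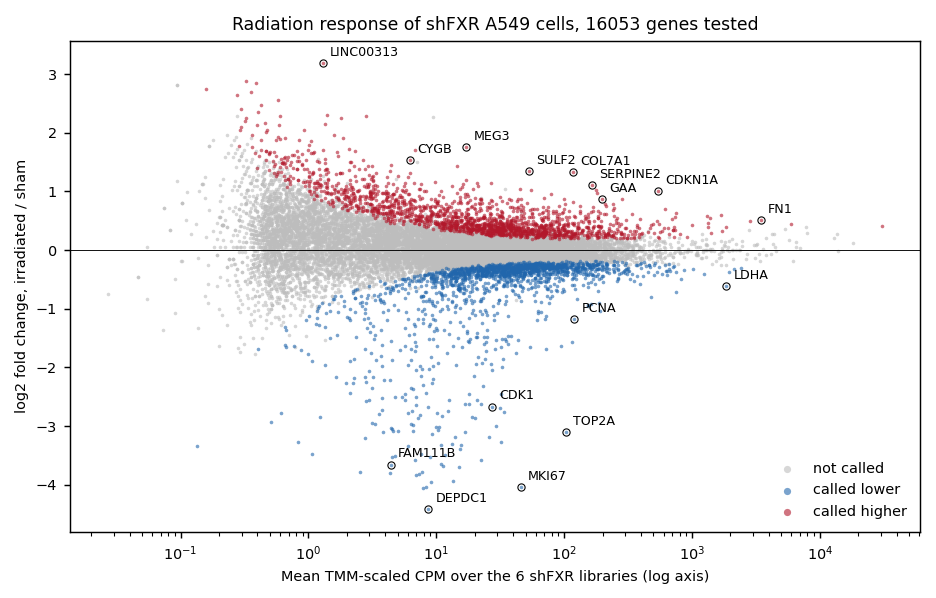
Log2 fold change (irradiated over sham shFXR cells, vertical axis) against the mean level over the 6 shFXR libraries (CPM, log axis) for the 16053 genes tested, with called genes in colour. The largest falls, DEPDC1 and MKI67 among them, reach further from 0 than the rises of well-expressed genes such as GAA, COL7A1 and SULF2.

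Promoters of the genes at the centre of the response differed in the letters they hold, and 6 are shown as examples from the gene groups described below, each with at least 1 of 4 motifs. The sequences are from RefSeq (GRCh38.p14), 250 bases before to 50 after the start of each gene, written 5′ to 3′ on the gene's strand. Capitals mark those motifs, searched on both strands: the CHR element TTTGAA, bound by DREAM and by the MYB-FOXM1 complexes, the NF-Y box CCAAT, the E2F element TTCCCGCC and the E-box CACGTG at the heart of the CLEAR element of lysosomal genes. None of these motifs overlaps another by its letters in the windows shown. CDK1 (the kinase of mitotic entry, chr10:60778081-60778380, plus strand) and CCNB2 (one of its cyclins, chr15:59104896-59105195, plus) hold a CHR element and an NF-Y box, 4 boxes in CCNB2. CDT1 and MCM7 (which load the replicative helicase at origins, chr16:88803539-88803838, plus, and chr7:100101348-100101647, minus) hold an E2F element and 3 NF-Y boxes with 1 E-box, respectively. GAA (the lysosomal enzyme that degrades glycogen, chr17:80101331-80101630, plus) holds 2 E-boxes, and COL7A1 (the collagen of anchoring fibrils, chr3:48595280-48595579, minus) holds an E2F element.
CDK1: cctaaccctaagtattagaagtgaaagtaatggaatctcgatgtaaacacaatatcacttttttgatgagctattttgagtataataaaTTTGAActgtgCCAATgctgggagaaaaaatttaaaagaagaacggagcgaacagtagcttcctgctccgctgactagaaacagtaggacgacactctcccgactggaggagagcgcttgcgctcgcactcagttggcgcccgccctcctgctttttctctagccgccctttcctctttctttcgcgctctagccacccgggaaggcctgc
CCNB2: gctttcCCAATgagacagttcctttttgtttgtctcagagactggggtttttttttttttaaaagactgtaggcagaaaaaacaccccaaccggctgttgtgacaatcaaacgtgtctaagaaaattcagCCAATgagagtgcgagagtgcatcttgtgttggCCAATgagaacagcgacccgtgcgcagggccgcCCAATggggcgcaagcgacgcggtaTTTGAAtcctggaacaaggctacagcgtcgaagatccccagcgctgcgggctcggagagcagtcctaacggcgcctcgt
CDT1: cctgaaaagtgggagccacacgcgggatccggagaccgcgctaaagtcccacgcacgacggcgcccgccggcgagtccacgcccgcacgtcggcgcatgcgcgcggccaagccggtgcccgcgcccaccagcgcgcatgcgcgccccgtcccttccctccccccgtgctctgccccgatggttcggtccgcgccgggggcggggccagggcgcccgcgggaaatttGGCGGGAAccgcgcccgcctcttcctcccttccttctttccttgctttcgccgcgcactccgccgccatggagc
MCM7: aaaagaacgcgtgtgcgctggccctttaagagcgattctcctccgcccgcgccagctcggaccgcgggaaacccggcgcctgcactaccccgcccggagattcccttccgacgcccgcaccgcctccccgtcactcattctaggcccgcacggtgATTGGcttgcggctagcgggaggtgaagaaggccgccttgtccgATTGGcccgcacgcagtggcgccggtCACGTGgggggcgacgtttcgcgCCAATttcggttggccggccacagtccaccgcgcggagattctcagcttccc
GAA: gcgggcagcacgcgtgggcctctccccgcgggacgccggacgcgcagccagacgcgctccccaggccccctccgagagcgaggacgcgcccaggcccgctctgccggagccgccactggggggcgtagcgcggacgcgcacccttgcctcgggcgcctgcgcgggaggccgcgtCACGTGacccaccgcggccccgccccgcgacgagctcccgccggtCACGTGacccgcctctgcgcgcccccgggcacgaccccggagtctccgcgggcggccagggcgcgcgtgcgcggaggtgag
COL7A1: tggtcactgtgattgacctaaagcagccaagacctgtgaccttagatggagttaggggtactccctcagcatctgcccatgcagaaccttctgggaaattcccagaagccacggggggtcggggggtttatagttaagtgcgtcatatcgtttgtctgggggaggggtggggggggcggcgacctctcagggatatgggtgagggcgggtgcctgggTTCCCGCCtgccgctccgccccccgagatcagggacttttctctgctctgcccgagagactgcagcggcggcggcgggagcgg

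Over gene groups, the CHR letters stood in the promoters of 82.6% of 23 spindle motor and cytokinesis genes with a promoter in the table, 48% of 25 kinetochore genes and 46.7% of 15 mitotic entry genes. They stood in 9.79% of the 11524 promoters of tested genes and in 15.4% of all 27305 promoters. The E2F letters were in 28.6% of 21 replication fork genes and 19% of 21 origin genes, beside 4.97% of tested genes. The CLEAR E-box was in 27.6% of 29 acid hydrolase genes and 33.3% of 12 V-ATPase genes, beside 9.95% of tested genes, and in none of 20 collagen chain genes. Among the 90 genes with a promoter that fell at least 4-fold, 53.3% held the CHR letters and 71.1% the NF-Y box, whose share in tested genes was 36.2%. The NF-Y box was also in 50% of 26 p53 targets, none of which fell, and 50% of 12 V-ATPase genes. The CLEAR E-box was in 7.88% of the 1256 genes with a promoter that rose and 11.7% of the 1334 that fell. These shares describe letters in a window and do not show binding.

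The fall of proliferation genes was deep and spread over most roles from origin licensing to cytokinesis. The anaphase-promoting complex (median -0.23) and replication-dependent histones (median 0.03) were the exceptions. Of 246 tested genes in the replication and mitosis lists, 197 fell and 4 rose, beside 10.2% and 10.9% of all genes, and their median log2 fold change was -1.18 against 0.02 over all genes. After radiation 140 of the 246 stood under 50% of their sham level, 60 under 20% and 15 under 10%. In shControl cells the same counts were 49, 0 and 0. The summed level of the 246 genes was 8769 to 10197 CPM in the sham libraries and 5169 to 5225 CPM in the irradiated ones. The irradiated libraries lay close together, and each was below each sham library.

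Genes that start mitosis fell almost without exception. Of 20 mitotic entry kinases, cyclins and their transcription factors 19 fell, with a median log2 fold change of -2.48, and the summed level went from 599.5 to 784 CPM to 270.1 to 274 CPM. CDK1 stood at 46.2, 43.1 and 53.1 CPM in sham and 7.85, 7.4 and 7.09 CPM in irradiated libraries (-2.67 ± 0.15, adjusted p = 4.5e-10). FOXM1, the transcription factor that drives late cycle genes, stood at 29.9, 24.4 and 32.2 CPM in sham and 5.29, 4.7 and 3.98 CPM in irradiated libraries (-2.63 ± 0.17, adjusted p = 1.3e-09). CCNB2, whose promoter holds 4 NF-Y boxes, stood at 37.9, 34.7 and 42.8 CPM and 9.33, 7.46 and 6.32 CPM (-2.32 ± 0.16, adjusted p = 3.3e-09). For all 3 genes the sham and irradiated libraries were far apart. The cyclins CCNB1 and CCNA2, partners of CDK1, fell to 31.6% and 10.1% of their sham levels (adjusted p = 1.3e-07 and 5.5e-09). NEK2, a centrosome kinase, fell from 15.6 ± 1.5 to 0.94 ± 0.22 CPM (SD, n = 3).

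Spindle motor and cytokinesis genes showed the lowest median of the roles, -2.67, with 24 of 25 falling. KIF2C, a kinesin that removes tubulin from microtubule ends, was at 13.8, 11.8 and 15.8 CPM in sham and 1.19, 0.918 and 0.818 CPM in irradiated libraries (-3.81 ± 0.22, adjusted p = 4.5e-10). KIF4A, a chromosome-bound kinesin of the spindle midzone, was at 19.1, 16.4 and 24.2 and 2.16, 1.95 and 1.85 CPM (-3.32 ± 0.18, adjusted p = 4.5e-10). KIF11, the motor that separates spindle poles, was at 36.8, 32.6 and 38.4 and 6.65, 6.6 and 5.18 CPM (-2.55 ± 0.15, adjusted p = 4.5e-10). Every irradiated library was below every sham library for these motors. KIF20A and KIF18B, kinesins of the central spindle and of astral microtubules, kept 6.38% and 7.72% of their sham levels. The summed level of the role went from 569 to 716 to 166 to 179.8 CPM, and 27.0% of the sham mean remained, against 63.7% in shControl cells.

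At the kinetochore, the chromosome site that spindle fibres hold, 27 of 28 genes fell with a median of -2.16. SPAG5, a spindle and kinetochore protein, was at 34.5, 28.7 and 43.2 CPM in sham and 4.66, 5.56 and 4.36 CPM in irradiated libraries (-2.87 ± 0.19, adjusted p = 2.3e-09). CENPF, a large outer kinetochore protein, was at 55.9, 45 and 63 and 9.55, 9.69 and 10.4 CPM (-2.46 ± 0.17, adjusted p = 3e-09). SKA1, which couples kinetochores to microtubules, was at 5.91, 5.47 and 6.2 and 0.853, 0.746 and 0.654 CPM (-2.96 ± 0.22, adjusted p = 9.4e-09). The libraries of the groups stood well apart in each case. NUF2, of the NDC80 complex, kept 7.25% of its sham level. Among 25 chromosome condensation, cohesion and passenger genes 24 fell, among them NCAPD2, a condensin subunit with 45.8% left (-1.13 ± 0.07, adjusted p = 8.3e-10), and NCAPG of the same complex with 5.95% left (-4.06 ± 0.35, adjusted p = 6.5e-08). TOP2A, which untangles chromosomes, and MKI67, the coat protein of mitotic chromosomes, kept 11.7% and 6.07%.

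The anaphase-promoting complex, the ubiquitin ligase that ends mitosis, fell in a minority of its genes. Of 18 genes 5 fell and none rose, with a median of -0.23. CDC20, its mitotic activator, was at 25.5, 21 and 36.7 CPM in sham and 2.56, 2.75 and 2.62 CPM in irradiated libraries (-3.39 ± 0.30, adjusted p = 7.3e-08). UBE2C, its ubiquitin-conjugating partner, was at 23.3, 22.2 and 30.6 and 3.41, 2.75 and 2.18 CPM (-3.19 ± 0.24, adjusted p = 9.4e-09). UBE2S, which extends the ubiquitin chains, was at 77.8, 80 and 97.6 and 43, 37 and 41.9 CPM (-1.07 ± 0.13, adjusted p = 5.6e-06). The activator and the conjugating enzymes were lower in every irradiated library than in any sham library. The count of 5 was 11 with the 6 shFXR libraries fitted alone and with voom sample weights, 9 without shControl sham replicate 2 and 3 without shFXR irradiated replicate 3.

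Replication genes fell nearly throughout. Of 25 origin licensing and firing genes 23 fell (median -1.51), and of 24 replication fork genes 23 fell (median -0.86). MCM7, a subunit of the replicative helicase, was at 169, 148 and 199.5 CPM in sham and 58.5, 58.7 and 58.2 CPM in irradiated libraries (-1.56 ± 0.12, adjusted p = 2.1e-08). CDT1, which loads that helicase, was at 30.2, 28 and 33.1 and 12.3, 10.3 and 10.2 CPM (-1.48 ± 0.11, adjusted p = 1.4e-08). GINS2, a part of the active helicase, was at 15.6, 17.3 and 22.9 and 2.39, 3.1 and 1.47 CPM (-3.01 ± 0.26, adjusted p = 7.2e-08). Sham and irradiated libraries did not overlap for these origin genes, and GINS2 changed most of the 3. PRIM1, the primase that starts each DNA strand, kept 24.2% of its sham level, RFC3, a clamp loader subunit, 31.7%, and PCNA, the clamp itself and also a p53 target, 44.3% (adjusted p = 9.4e-08, 1.5e-07 and 1.6e-07).

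Most genes of nucleotide supply fell. Of 15, 12 fell and 1 rose. RRM2, the S phase subunit of ribonucleotide reductase, was at 16.9, 15 and 23.8 CPM in sham and 2.39, 2.12 and 2.13 CPM in irradiated libraries (-3.07 ± 0.30, adjusted p = 2.5e-07). RRM2B, its p53-induced counterpart that supplies resting and damaged cells, was at 87.6, 93.1 and 77 and 117, 118 and 114 CPM (0.44 ± 0.10, adjusted p = 0.0028). The subunits moved in opposite directions in all 3 libraries of each group. TK1, thymidine kinase, kept 14.8% of its sham level.

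Of 20 genes for chromatin assembly and the nuclear envelope of cycling cells 19 fell, among them 2 whose loss is a known feature of senescent cells. LMNB1, the B-type lamin, was at 36.5, 33.9 and 43.7 CPM in sham and 9.84, 10.5 and 11 CPM in irradiated libraries (-1.86 ± 0.12, adjusted p = 1.7e-09). HMGB2, a chromatin protein, was at 53.4, 49.5 and 61.7 and 8.02, 8.09 and 9.16 CPM (-2.70 ± 0.16, adjusted p = 4.5e-10). HMGB1, its relative, was at 254, 247 and 275 and 128, 127 and 121 CPM (-1.04 ± 0.08, adjusted p = 2.2e-08). No irradiated library reached the sham range for any of them. Homologous recombination and Fanconi anaemia genes, which mend broken or crosslinked DNA with a sister strand, also fell: 20 of 25, with a median of -1.62, FANCI to 29.6%, BRCA1 to 26.4% and BRIP1 to 24.6% of sham. Replication-dependent histone genes had a median of 0.03, with 3 of 21 higher (14.3%) and 1 lower (4.76%), beside 10.9% and 10.2% of all genes. The 3 rises were 0 without sham replicate 3 or irradiated replicate 3 and 1 without sham replicate 1 or with total counts. The fall was lost without sham replicate 1 or irradiated replicate 2. Only 21 of 70 listed histone genes passed the count filter, and their mRNAs mostly lack the poly-A tail by which these libraries were selected.

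**Figure D2:**
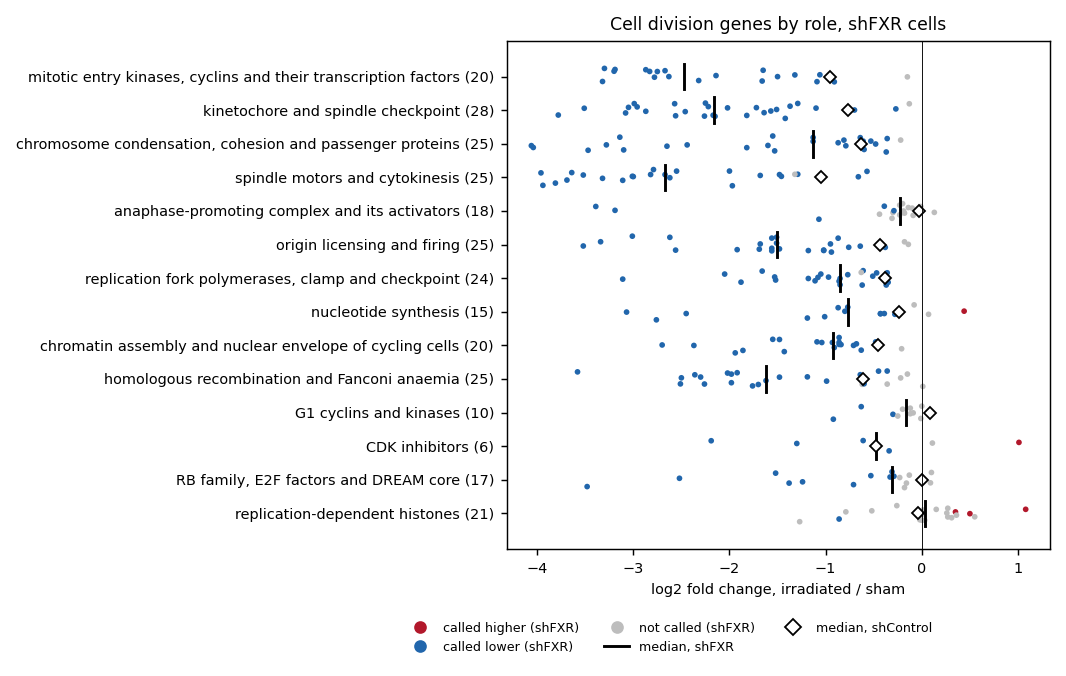
Log2 fold change (irradiated over sham shFXR cells) of each tested member of the replication, mitosis and cell cycle control lists, 1 row per role, with the shFXR median as a bar and the shControl median as a diamond. Medians run from -2.67 for spindle motors to 0.03 for histones, and the shControl medians of the mitotic roles lie nearer 0.

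Control genes of the cycle fell in part. Among RB family, E2F and DREAM genes 10 of 17 fell. E2F1, an activator of S phase genes, was at 25.7, 24.2 and 30.9 CPM in sham and 9.72, 9.58 and 8.83 CPM in irradiated libraries (-1.52 ± 0.14, adjusted p = 1.3e-07). E2F2, a second activator, was at 5.75, 4.83 and 8.58 and 1.14, 1.15 and 1.04 CPM (-2.52 ± 0.27, adjusted p = 9.2e-07). E2F8, a repressor made late in S phase, was at 2.04, 1.49 and 2.32 and 0.284, 0.115 and 0.109 CPM (-3.48 ± 0.43, adjusted p = 6.3e-06). All 3 were lower in each irradiated library. Of the 10 G1 cyclins and kinases 3 fell: CDK2 (-0.63 ± 0.09), CDK4 (-0.30 ± 0.09) and CCNE2 (-0.92 ± 0.31, adjusted p = 0.04). CCNE2 lost its call with an offset for GC content (adjusted p = 0.074) and had an adjusted p of 0.077 to 0.19 without sham replicate 1, 2 or 3 or irradiated replicate 2 or 3, and CDK4 had an adjusted p of 0.055 to 0.094 without sham replicate 1 or 3 or irradiated replicate 1 or 2. CCND1, cyclin D1, was at 272, 268 and 330.5 CPM in sham and 279, 279.5 and 244 CPM in irradiated libraries, overlapping groups (-0.12 ± 0.12, adjusted p = 0.54).

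Of 6 CDK inhibitors 1 rose and 4 fell. CDKN1A, which encodes p21, was at 353, 377 and 355 CPM in sham and 735, 706 and 753 CPM in irradiated libraries (1.01 ± 0.07, adjusted p = 2.3e-09). CDKN2C, an inhibitor of CDK4 and CDK6, was at 10.4, 9.24 and 9.6 and 3.98, 4.3 and 3.6 CPM (-1.30 ± 0.14, adjusted p = 9.5e-07). CDKN1C, which encodes p57, was at 9.39, 7.22 and 10.8 and 6.2, 6.25 and 5.56 CPM (-0.61 ± 0.19, adjusted p = 0.031). The sham and irradiated ranges were apart for each, but CDKN1C had an adjusted p of 0.066 to 0.15 without sham replicate 1 or 3 or irradiated replicate 1, 2 or 3. The 4 falls were 2 without sham replicate 1 or without any 1 irradiated library. CDKN3, a phosphatase whose own expression follows the cell cycle, kept 21.9%. CDKN1A belongs to the p53 targets as well, of which 25 of 35 rose and none fell, with a median of 0.41. MDM2, the ligase that degrades p53, rose 1.84-fold (0.88 ± 0.07, adjusted p = 3.8e-08), BBC3, which encodes the apoptosis inducer PUMA, 1.83-fold (0.87 ± 0.09, adjusted p = 6.4e-07) and GDF15, a secreted stress factor, 1.65-fold (0.72 ± 0.10, adjusted p = 2.8e-05).

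Several of the largest rises were of genes for secreted, matrix and cell surface proteins. By size of change, the 12 protein-coding genes at a mean of at least 5 CPM with separate groups began with CYGB, a globin of fibroblast-like cells, SULF2, a sulfatase that trims heparan sulfate outside the cell, COL7A1 and TRIM22, a p53- and interferon-inducible ubiquitin ligase. SULF2 was at 32.5, 30.1 and 26.8 CPM in sham and 73.2, 78.4 and 76.9 CPM in irradiated libraries (1.35 ± 0.08, adjusted p = 8.3e-10). COL7A1 was at 66.2, 67.7 and 65.9 and 172, 159 and 172 CPM (1.33 ± 0.13, adjusted p = 1.7e-07). SERPINE2, an inhibitor of thrombin and plasminogen activators, was at 114, 109 and 88.7 and 233, 225 and 215 CPM (1.11 ± 0.10, adjusted p = 8.5e-08). Each of these stood higher in all 3 irradiated libraries, by more than the spread among replicates. The other members were FAT3, a giant cadherin (2.97 ± 0.75 to 7.12 ± 0.9 CPM), CD82, a tetraspanin known as a metastasis suppressor (3.56 ± 0.68 to 8.38 ± 0.27), DNHD1, a dynein-related gene (10.3 ± 1.7 to 23.7 ± 1.9), and SEC31B, a coat protein of vesicles that leave the endoplasmic reticulum (6.09 ± 1.3 to 13.6 ± 0.44). SMOC1, a calcium-binding matricellular protein, went from 4.17 ± 0.69 to 9.28 ± 0.98 CPM, ASIC3, an acid-gated channel, from 3.52 ± 0.27 to 7.8 ± 0.93 CPM, and SEMA3B, a secreted semaphorin, from 10.2 ± 0.89 to 22.1 ± 1.4 CPM (SD, n = 3). SULF2 shares its span with NCOA3 on the opposite strand, which fell (-0.44 ± 0.09, adjusted p = 0.0015), and whether counting used the strand was not given in the sources used here.

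Lysosomal genes rose by less than 2-fold, hydrolases among them. Of 131 tested genes in 7 roles 48 rose (36.6%) and 4 fell (3.05%), beside 10.9% and 10.2% of all genes. The median was 0.17, and changes ran from -0.43 to 0.87 on the log2 scale. Of 44 acid hydrolases, the enzymes of the lumen, 24 rose and none fell (median 0.34). GAA, acid alpha-glucosidase, was at 144, 137 and 136 CPM in sham and 249.8, 253 and 260.2 CPM in irradiated libraries (0.87 ± 0.08, adjusted p = 1.1e-07). ARSA, which removes sulfate from sulfatide lipids, was at 24.5, 26.2 and 27.5 and 49.1, 45 and 48.9 CPM (0.87 ± 0.09, adjusted p = 3.2e-07). MAN2B1, which trims mannose from glycoproteins, was at 44.1, 43.2 and 42 and 70.1, 70 and 69.7 CPM (0.70 ± 0.08, adjusted p = 3.1e-06). These enzymes stood higher in each irradiated library than in any sham library. The promoter shown for GAA held 2 CLEAR E-boxes, while that of MAN2B1 held none and 1 NF-Y box. GLB1, the beta-galactosidase behind the senescence stain, rose more modestly, from 119, 115 and 109 to 149, 151 and 147 CPM (0.38 ± 0.07, adjusted p = 0.0011). The summed level of acid hydrolases was 3370.0 to 3450.0 CPM in sham and 4316 to 4468 CPM in irradiated libraries.

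Helpers of the hydrolases rose too. All 4 cofactors rose: GRN, progranulin, was at 266, 263 and 278 CPM in sham and 393, 401 and 436 CPM in irradiated libraries (0.61 ± 0.08, adjusted p = 1.8e-05). PSAP, the precursor of the saposins that present lipids to hydrolases, was at 1103, 1123 and 1132 and 1532, 1547 and 1567 CPM (0.47 ± 0.07, adjusted p = 6.6e-05). SUMF1, which activates sulfatases, was at 30.4, 29.4 and 32.5 and 42.1, 39.9 and 42.7 CPM (0.43 ± 0.07, adjusted p = 0.0003). Sham and irradiated libraries were separate for the 3 genes. Of 9 sorting genes 4 rose, among them GNPTG, of the enzyme that tags hydrolases with mannose 6-phosphate (0.67 ± 0.09), SORT1, a sorting receptor (0.55 ± 0.09) and IGF2R, the mannose 6-phosphate receptor (0.40 ± 0.08), and 1, GGA2, an adaptor at the Golgi, fell (-0.38 ± 0.08, adjusted p = 0.0014).

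In the lysosome's membrane and proton pump fewer members were called. Of 18 membrane protein genes 7 rose and none fell, with a median of 0.16, among them ATP13A2, a polyamine transporter (0.54 ± 0.09), NPC1, which exports cholesterol (0.42 ± 0.08) and SIDT2, a putative nucleic acid transporter (0.57 ± 0.11). LAMP1, a coat glycoprotein of the lysosome membrane, was at 138, 138 and 156 CPM in sham and 170.1, 177 and 179 CPM in irradiated libraries (0.28 ± 0.07, adjusted p = 0.0082), with an adjusted p of 0.052 without sham replicate 1. Of 17 genes of the V-ATPase, the proton pump, 3 rose with a median of 0.05: ATP6AP2 (0.32 ± 0.07) and ATP6AP1 (0.38 ± 0.09), which are accessory proteins, and ATP6V1A, a catalytic subunit (0.21 ± 0.08, adjusted p = 0.05, at the threshold and lost under several alternatives). The V-ATPase rises were 17.6% of the role, beside 10.9% of all genes. Transcription factors and the nutrient-sensing complex gave 1 rise in 15 (6.67%), TFE3 (0.22 ± 0.07, adjusted p = 0.036). Its call ended with the GC offset (adjusted p = 0.35), with no filter and without any 1 of the 6 shFXR libraries. TFEB, the master activator of lysosomal genes, was at 8.67, 9.08 and 8.42 CPM in sham and 11.4, 8.43 and 9.21 CPM in irradiated libraries, overlapping groups (0.15 ± 0.15, adjusted p = 0.52). Among 24 autophagy genes 5 rose and 3 fell (20.8% and 12.5%, beside 10.9% and 10.2% of all genes). MAP1LC3A, an autophagosome marker, was among the rises (0.64 ± 0.13) and ULK2, an initiating kinase, among the falls (-0.43 ± 0.09). ULK1, its close relative, had the opposite sign (0.34 ± 0.08, adjusted p = 0.0061), but its call and that of ATG5 (-0.30 ± 0.09, adjusted p = 0.02) ended with the GC offset (adjusted p = 0.16 and 0.15). Without sham replicate 1, sham replicate 3 or irradiated replicate 1 the rises among autophagy genes were 2, and ATG5 had an adjusted p of 0.058 to 0.083 without sham replicate 2 or 3 or irradiated replicate 2 or 3.

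Matrix genes rose more widely. Of 137 tested 78 rose and 5 fell, beside 10.9% and 10.2% of all genes, and the median was 0.41. Collagen chains rose in 17 of 26 with none falling (median 0.65). COL6A1 and COL6A2, chains of the microfibrillar collagen VI, rose 1.57-fold and 1.62-fold (0.65 ± 0.08 and 0.70 ± 0.09, adjusted p = 7.4e-06 and 1.5e-05). COL1A1, a chain of fibrillar collagen I, was at 3.09, 4.04 and 2.1 CPM in sham and 6.31, 5.45 and 5.94 CPM in irradiated libraries (0.94 ± 0.21, adjusted p = 0.003), low in all 6. With the GC offset 11 of the 26 collagen genes rose, and of the 22 matrix proteases, sulfatases and inhibitors 7 rose in place of 14; a filter at a mean of 5 CPM left 11 rising collagen genes.

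Laminins, the sheet-forming proteins of basement membranes, rose in 7 of 10 genes with none falling. LAMB2 was at 129.6, 122 and 129.9 CPM in sham and 205, 218 and 211 CPM in irradiated libraries (0.73 ± 0.08, adjusted p = 1e-06). LAMA3, a chain of epithelial laminins, was at 99.3, 101 and 93.1 and 135, 152 and 145 CPM (0.56 ± 0.08, adjusted p = 5.3e-05). Both genes were higher in all irradiated libraries. Among receptors, 4 of 18 integrin genes rose: ITGA3, which binds laminins (1039.7 ± 26.4 to 1564 ± 45.1 CPM, 0.59 ± 0.08, adjusted p = 1.7e-05), ITGA5, which binds fibronectin (0.49 ± 0.09) and ITGB3, of the vitronectin receptor (0.74 ± 0.25), among them. ITGB3 lost its call with the GC offset (adjusted p = 0.062) and had an adjusted p of 0.08 to 0.2 without sham replicate 2 or 3 or irradiated replicate 1 or 3. The count of 4 was 2 with total counts, without shControl irradiated replicate 2 and without sham replicate 2 or 3 or irradiated replicate 1 or 3, 7 with the 6 shFXR libraries alone and 9 with voom sample weights.

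Of 41 proteoglycans and matricellular glycoproteins 23 rose and 2 fell. TGFBI, a secreted adhesion protein induced by TGF-beta, was at 1359, 1449 and 1211 CPM in sham and 2076, 1998 and 2029 CPM in irradiated libraries (0.60 ± 0.08, adjusted p = 2.5e-05). AGRN, agrin of basement membranes, was at 164, 154 and 184 and 261, 269 and 241 CPM (0.62 ± 0.08, adjusted p = 1.8e-05), and GPC1, a membrane-anchored heparan sulfate proteoglycan, rose 1.57-fold (0.65 ± 0.08). FN1, fibronectin, was at 3107, 3019 and 2430.1 and 3867, 4398 and 3956 CPM (0.51 ± 0.16, adjusted p = 0.024). FN1 was higher in every irradiated library, yet its call ended with total counts (adjusted p = 0.053) and DESeq2 (adjusted p = 0.081), and it had an adjusted p of 0.056 to 0.13 without sham replicate 3 or irradiated replicate 2 or 3. MATN3, a matrilin of cartilage, and FBLN1, fibulin 1, fell (-0.53 ± 0.15 and -0.30 ± 0.10, adjusted p = 0.015 and 0.029). MATN3 had an adjusted p of 0.069 to 0.1 without sham replicate 3 or irradiated replicate 3, and FBLN1 an adjusted p of 0.072 to 0.14 without sham replicate 1 or 3 or irradiated replicate 1 or 2.

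Enzymes that build and cut the matrix rose with it. Of 20 collagen-modifying and crosslinking enzymes 13 rose and 1 fell. BMP1, which cleaves procollagen, was at 129, 132 and 131 CPM in sham and 206, 208 and 207 CPM in irradiated libraries (0.66 ± 0.07, adjusted p = 9.1e-07). P4HA3, a collagen prolyl hydroxylase, was at 57.1, 59.6 and 49.9 and 89.9, 84.8 and 92.7 CPM (0.68 ± 0.08, adjusted p = 5.8e-06). P3H1, another hydroxylase, was at 42, 46.3 and 44.5 and 63.7, 67.4 and 71 CPM (0.61 ± 0.09, adjusted p = 8.3e-05). For these enzymes the groups were apart. LOX, the crosslinking lysyl oxidase, went the other way (42.4 ± 8.9 to 29.2 ± 2.4 CPM, -0.54 ± 0.13, adjusted p = 0.005), with an adjusted p of 0.052 without sham replicate 1. Of 22 proteases, sulfatases and inhibitors 14 rose, with SULF2, ADAMTS7, a metalloprotease (0.89 ± 0.09), and TIMP2, an inhibitor of matrix metalloproteases (0.53 ± 0.07), among them, and 2 fell, HPSE, which cuts heparan sulfate (-0.76 ± 0.21), and MMP24, a membrane-bound metalloprotease (-0.51 ± 0.14). HPSE had an adjusted p of 0.053 to 0.076 without sham replicate 3 or irradiated replicate 2 and MMP24 an adjusted p of 0.075 to 0.098 without sham replicate 3 or irradiated replicate 3, and the 14 rises were 7 without sham replicate 3 or irradiated replicate 3 and 8 without sham replicate 1. VIM, the mesenchymal filament, rose from 642, 683 and 547 to 834, 759 and 866 CPM (0.39 ± 0.10, adjusted p = 0.0079), with an adjusted p of 0.062 without sham replicate 3. CDH2, N-cadherin, rose as well (0.28 ± 0.07), with an adjusted p of 0.056 to 0.074 without sham replicate 3 or irradiated replicate 1. Of 10 fibroblast markers 9 had at least 10 counts in a library, and COL1A2 stayed under 10 counts in all 6. Of the 8 tested 5 rose, COL1A1, FAP and ACTA2 among them, and none fell. Counts overlapped for COL3A1 (18, 15 and 16 in sham, 9, 16 and 14 in irradiated libraries) and DCN (433, 541 and 403, then 469, 544 and 513). The list summed to 63.6 to 81.1 CPM of the library total in sham and 100.1 to 108.5 in irradiated libraries. The part of these markers in the rise of matrix genes was not tested.

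Secreted factors rose in 36 of 119 tested genes (30.3%) and fell in 2 (1.68%), beside 10.9% and 10.2% of all genes. Their median was 0.31. Among 11 serpins and plasminogen activators 5 rose and none fell, and the 5 rises were 3 without sham replicate 3 or irradiated replicate 1 and with a filter at a mean of 5 CPM. PLAU, urokinase, a protease that activates plasminogen, was at 41.8, 44.6 and 47.5 CPM in sham and 64.3, 61.5 and 71.4 CPM in irradiated libraries (0.56 ± 0.08, adjusted p = 5.2e-05). PLAU and SERPINE2, an inhibitor of it given above, were both higher in every irradiated library. IGFBP7 and IGFBP4 rose among 6 IGF-binding proteins: IGFBP7 was at 11.3, 8.92 and 9.6 and 21.8, 20.1 and 19.5 CPM (1.04 ± 0.11, adjusted p = 5.9e-07), and IGFBP4 at 1179, 1210.0 and 1106 and 1489, 1548 and 1546 CPM (0.39 ± 0.09, adjusted p = 0.0036).

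Inflammatory signals moved in a minority of genes. Of 25 chemokines and interleukins 7 rose and none fell. CXCL2, which draws neutrophils, was at 16.4, 16.5 and 20.1 CPM in sham and 23.1, 27.8 and 26.9 CPM in irradiated libraries (0.55 ± 0.11, adjusted p = 0.0011). IL32 was at 1.93, 2.07 and 1.89 and 4.95, 4.3 and 4.2 CPM (1.19 ± 0.22, adjusted p = 0.00065), and CSF1, the macrophage growth factor, rose 1.37-fold (0.45 ± 0.09, adjusted p = 0.00084). The summed level of the role was 717 to 724 CPM in sham and 719.8 to 771 CPM in irradiated libraries, ranges that overlap, and the 7 rises were 4 without sham replicate 1, sham replicate 3 or irradiated replicate 3. Of 17 TGF-beta family members and antagonists 5 rose, with GDF15, FSTL1, an extracellular follistatin-like protein (0.36 ± 0.07), and TGFB1 (0.30 ± 0.09) among them. TGFB1 lost its call with the GC offset (adjusted p = 0.18) and had an adjusted p of 0.052 to 0.075 without sham replicate 1, 2 or 3 or irradiated replicate 1 or 3, and the 5 rises were 2 without sham replicate 3 or irradiated replicate 3. Other growth factors rose in 9 of 38, led by DKK3, a secreted Dickkopf family protein (46.4 ± 1 to 75.5 ± 1.6 CPM, 0.70 ± 0.08, adjusted p = 2.2e-06). Among 22 complement and acute phase genes 8 rose and 2 fell. CLU, the chaperone clusterin, was at 182, 186 and 188 CPM in sham and 290.5, 292 and 330.5 CPM in irradiated libraries (0.72 ± 0.08, adjusted p = 4.1e-06). APOE, a lipid carrier, was at 47.3, 62.1 and 52.9 and 106, 87.8 and 119 CPM (0.95 ± 0.12, adjusted p = 8.6e-06). Both falling genes, FGB, a fibrinogen chain (-0.41 ± 0.12), and CD55, a complement regulator (-0.36 ± 0.12), lost their call with the GC offset (adjusted p = 0.056 and 0.1), and FGB had an adjusted p of 0.081 to 0.12 without sham replicate 3 or irradiated replicate 3. CD55 lost it without any 1 of the 6 shFXR libraries.

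**Figure D3:**
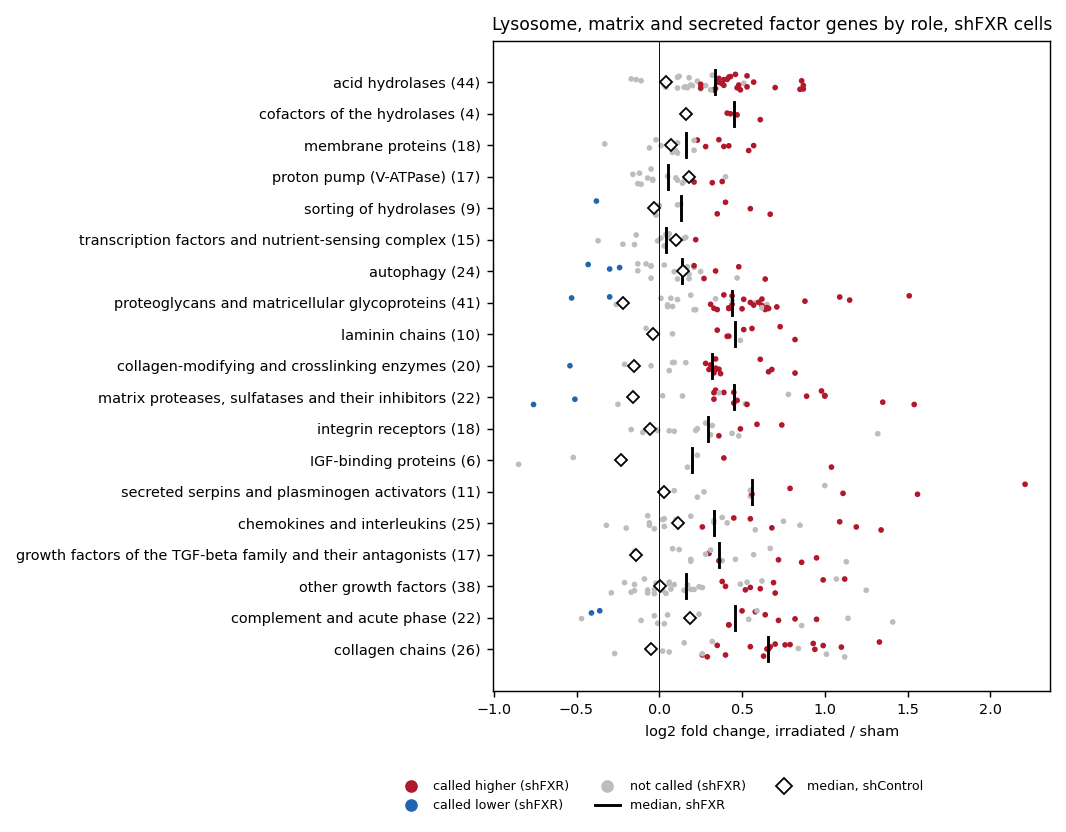
Log2 fold change (irradiated over sham shFXR cells) of each tested member of the lysosome, matrix and secreted factor lists, 1 row per role, with the shFXR median as a bar and the shControl median as a diamond. Collagen chains have a shFXR median of 0.65 and proteoglycans of 0.44, while the V-ATPase median is 0.05.

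Few lincRNA and antisense genes fell, while the share that rose was no higher than over all genes. Of 701 lincRNA genes 73 rose (10.4%) and 9 fell (1.28%), and of 770 antisense genes 52 rose (6.75%) and 7 fell (0.909%). Over all genes 10.9% rose and 10.2% fell. The medians of the 2 classes were 0.24 and 0.22, against 0.00 for protein-coding genes, where 1526 rose and 1593 fell. Of 411 processed pseudogenes 6 rose (1.46%) and 15 fell (3.65%), both below the shares of all genes, with a median of -0.08. MEG3, an imprinted long RNA on chromosome 14 from 100779410 to 100861031 (hg38, plus strand) that is described as an activator of p53, was at 8.51, 7.75 and 7.39 CPM in sham and 24.8, 26.8 and 28.2 CPM in irradiated libraries (1.75 ± 0.19, adjusted p = 1.6e-06). LINC00313, on chromosome 21 from 43462094 to 43479534 (minus strand), was at 0.276, 0.266 and 0.216 and 0.341, 0.574 and 6.1 CPM (3.19 ± 0.99, adjusted p = 0.026). ENSG00000279821, of the biotype TEC (a transcript awaiting experimental support), on chromosome 5 from 177476631 to 177479656 (minus strand), was at 0.608, 0.425 and 0.432 and 2.84, 1.43 and 2.29 CPM (2.15 ± 0.34, adjusted p = 0.00014). The libraries of the groups were apart for MEG3 and ENSG00000279821, whereas for LINC00313 irradiated replicate 3 stood far above the other irradiated libraries, which were near the sham level. LINC00313 lost its call with voom sample weights (adjusted p = 0.2) and had an adjusted p of 0.073 to 0.62 without sham replicate 1, 2 or 3 or irradiated replicate 3.

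The remaining rises by the same rule were TPTEP2 (1.86 ± 0.42), a pseudogene, LINC01977 (1.70 ± 0.39) and FAM238C (1.70 ± 0.45), each between 0.454 and 2.0 CPM on average in the groups. FAM238C had an adjusted p of 0.063 to 0.066 without sham replicate 1 or irradiated replicate 3. Chosen after their values were seen, MALAT1, an abundant nuclear RNA, was at 116, 110.5 and 125 CPM in sham and 239.6, 252 and 227 CPM in irradiated libraries (1.03 ± 0.15, adjusted p = 6.7e-05). PURPL, a p53-induced long RNA, was at 38.2, 36.3 and 33.1 and 75.8, 74.1 and 70.5 CPM (1.03 ± 0.12, adjusted p = 4.7e-06), and PINCR, another, at 3.15, 3.08 and 3.35 and 10.6, 9.75 and 10.7 CPM (1.70 ± 0.16, adjusted p = 1.7e-07). The irradiated libraries were higher throughout for these RNAs. Among the 4 largest falls of such genes, 3 lay in or opposite proliferation genes. PRR11-AS1 (-1.80 ± 0.31) and TMPO-AS1 (-1.89 ± 0.45) lie opposite PRR11 (-1.95 ± 0.15) and TMPO (-1.17 ± 0.10), and ENSG00000261061 (-2.07 ± 0.31) lies inside CENPN on the same strand (-2.02 ± 0.19). Since the strand setting and the handling of shared reads were not given in the sources used here, these values are uncertain as measures of the RNAs they are assigned to.

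Of 662 tested genes with placeholder names 69 rose (10.4%) and 49 fell (7.4%), beside 10.9% and 10.2% of all genes, with a median of 0.03. Numbered open reading frames gave 8 rises and 12 falls in 186 (4.3% and 6.45%). FAM and KIAA names gave 20 and 17 in 193 (10.4% and 8.81%), and TMEM and CCDC names 41 and 20 in 284 (14.4% and 7.04%). These counts depend on single libraries: without 1 shFXR library the TMEM and CCDC rises were 21 to 32, the FAM and KIAA rises 11 to 17 and the open reading frame rises 3 to 5. The TMEM and CCDC falls were then 10 to 13 and the open reading frame falls 6 to 10. FAM111B, a protease-like gene, was at 7.24, 7.12 and 10.1 CPM in sham and 0.796, 0.688 and 0.436 CPM in irradiated libraries (-3.66 ± 0.34, adjusted p = 1.5e-07). CCDC150 was at 3.7, 4.14 and 4.59 and 1.65, 1.49 and 1.8 CPM (-1.33 ± 0.20, adjusted p = 7e-05), and C3orf14 at 5.3, 3.19 and 6.1 and 1.99, 1.2 and 2.13 CPM (-1.45 ± 0.26, adjusted p = 0.00055). All 3 were lower in each irradiated library. FAM72B, FAM72C and FAM72D fell too (-2.17 ± 0.21, -1.89 ± 0.32 and -2.43 ± 0.32), but they are near-identical copies among which counting can split reads. Rises were smaller: TMEM132A was at 163, 154 and 157 CPM in sham and 267, 257 and 272 CPM in irradiated libraries (0.75 ± 0.09, adjusted p = 4.5e-06), and TMEM86A, an enzyme of ether lipid breakdown, at 1.49, 1.7 and 1.67 and 4.72, 2.75 and 3.87 CPM (1.22 ± 0.30, adjusted p = 0.0076). TMEM198 (1.02 ± 0.27), FAM228B (0.98 ± 0.25), TMEM38A, a channel of the endoplasmic reticulum (0.95 ± 0.17), TMEM63C (0.92 ± 0.26) and CCDC146 (0.90 ± 0.19) completed the largest rises. TMEM198 lies opposite CHPF, which also rose (0.67 ± 0.08). TMEM63C had an adjusted p of 0.063 to 0.085 without sham replicate 1 or 3 or irradiated replicate 3, and TMEM86A an adjusted p of 0.051 without irradiated replicate 1.

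**Figure D4:**
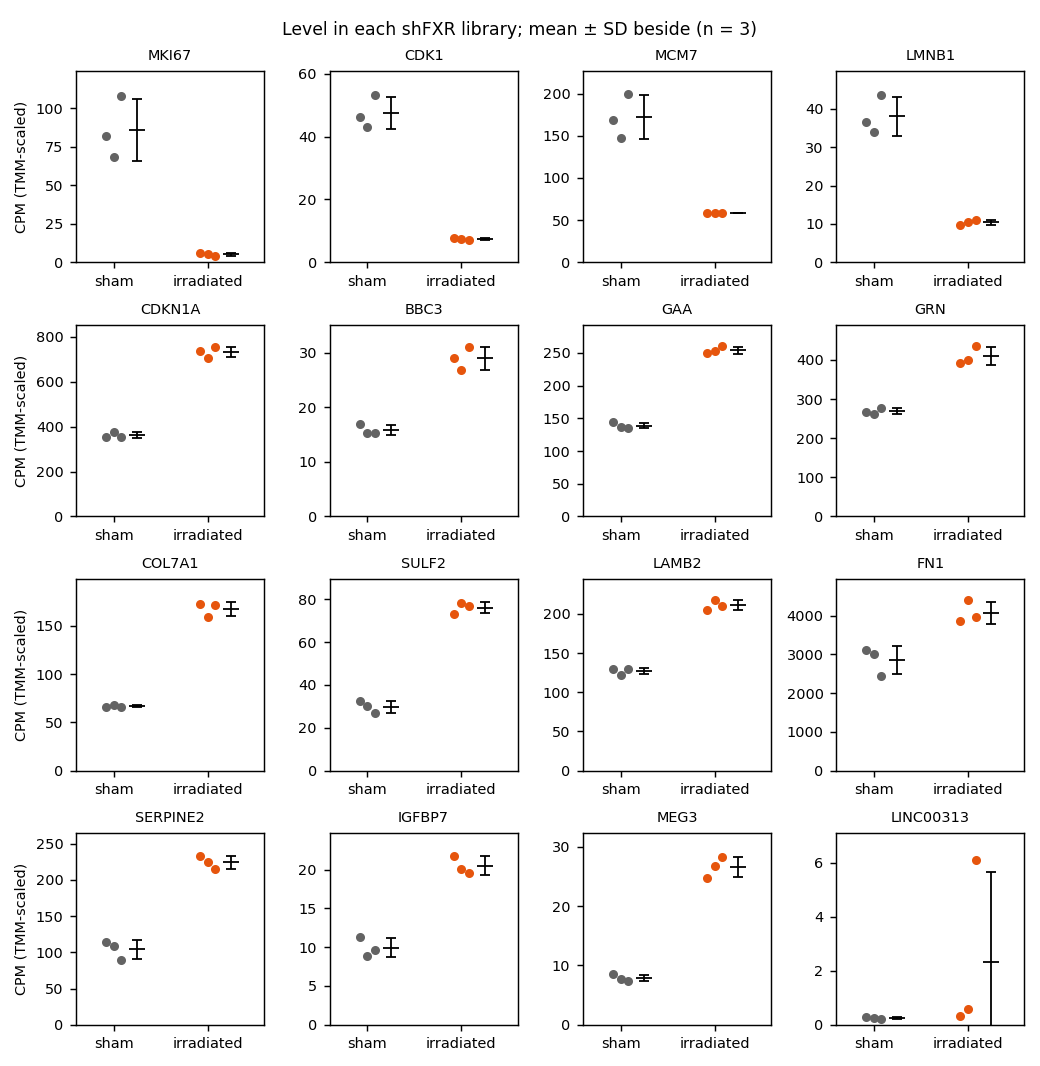
Level (TMM-scaled CPM) of 16 genes in each of the 6 shFXR libraries as points, with the mean ± SD of each group beside them (n = 3). The groups of MKI67, CDK1, COL7A1 and MEG3 are far apart, while for LINC00313 irradiated replicate 3 stands alone and the lower error bar is cut at 0.

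Base composition moved with the response. Genes that rose had a median transcript GC content of 55.6%, genes that fell 43% and genes not called 48.4%. With the genes cut into 5 equal bins of GC content, from the lowest to the highest bin the share that rose went from 4.39% to 21.2%, the share that fell from 18.5% to 3.66%, and the median log2 fold change from -0.1 to 0.16. In shControl cells the medians ran the other way, from 0.08 in the lowest bin to -0.14 in the highest. With an offset that removes each library's trend over GC content, 3087 genes were called (1401 higher and 1686 lower), of which 2439 were the same genes in the same direction. The number of falls in each replication and mitosis role moved by at most 1, and acid hydrolases gave 25 rises in place of 24, whereas collagen chains gave 11 in place of 17 and matrix proteases, sulfatases and inhibitors 7 in place of 14. What part of the trend arose in library preparation was not tested.

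**Figure D5:**
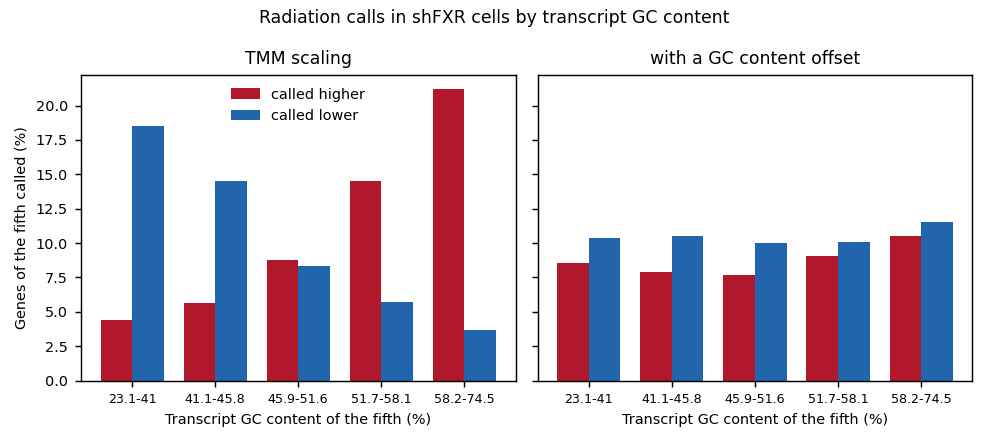
Percent of tested genes called higher and lower in irradiated shFXR cells in 5 bins of transcript GC content, with TMM scaling and with a GC content offset. With TMM scaling the share called higher reaches 21.2% in the highest bin and the share called lower 18.5% in the lowest.

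Whether the radiation response of shFXR cells differed from that of shControl cells was tested gene by gene as a difference of responses. It was called higher in shFXR cells for 7.31% of all genes tested and lower for 7.67%, while radiation in shControl cells raised 5.07% and lowered 4.96%. The hairpin is not the only thing in which separately made lines can differ, so its effect and any other difference between the lines cannot be told apart. The count of 2405 called differences was 1327 with the GC offset, and each count below is followed by that under the offset.

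The fall of proliferation genes was deeper in shFXR cells. In shControl cells 111 of the 246 proliferation genes fell and the summed level remaining was 80.4%, against 55.3% in shFXR cells. The difference was called lower for 24 of 25 spindle motor genes (22 with the offset), 24 of 28 kinetochore genes (21), 16 of 20 mitotic entry genes (16), 19 of 25 origin genes (18) and 13 of 24 fork genes (10). CDK1 had a log2 fold change of -0.87 ± 0.13 in shControl cells, a difference of -1.80 ± 0.20 (adjusted p = 6.9e-05). MCM7 was at 85.2, 125 and 106 CPM in sham and 50.9, 59.2 and 67.3 CPM in irradiated shControl libraries, a difference of -0.72 ± 0.17 (adjusted p = 0.011). PCNA was at 159, 219 and 181 and 150.3, 164 and 189.6 CPM there, overlapping groups, and its difference was -1.03 ± 0.15 (adjusted p = 0.00047). The summed level of proliferation genes was 6728 to 8047 CPM in sham shControl cells, below each sham shFXR library, and 5463 to 6652 CPM after radiation, so that the irradiated shFXR libraries lay below all of those.

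The p53 targets rose in both lines. In shControl cells 32 of 35 rose and none fell (median 0.62, against 0.41 in shFXR cells), and the difference was called higher for 2 and lower for 7 (0 and 8 with the offset). CDKN1A rose from 324, 320.0 and 325 to 763, 783 and 699.5 CPM in shControl cells, with a difference of -0.20 ± 0.10 (adjusted p = 0.18). With the GC offset that difference was -0.40 ± 0.09 and was called (adjusted p = 0.014), and so was that of GDF15 (adjusted p = 0.0018, against 0.072 without it). Of the named targets BBC3 had a higher response in shFXR cells (0.62 ± 0.13, adjusted p = 0.0038), which the GC offset ended (adjusted p = 0.38). CCND1 rose in shControl cells (0.65 ± 0.12, adjusted p = 0.0026) and its difference was -0.76 ± 0.17 (adjusted p = 0.008).

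Matrix and acid hydrolase responses differed in the opposite direction to those of proliferation genes. Over all 131 lysosomal genes the median difference was only 0.07, against 0.49 over the 137 matrix genes. The difference was called higher for 18 of 41 proteoglycans and matricellular genes (16 with the offset), 11 of 26 collagen chains (6), 6 of 10 laminins (4), 11 of 20 collagen-modifying enzymes (6), 12 of 22 proteases and inhibitors (4) and 13 of 44 acid hydrolases (10). For the V-ATPase none was higher and 2 were lower (0 with the offset). Autophagy genes gave 2 higher and 2 lower (0 and 3), and lysosomal transcription factors and nutrient-sensing genes 0 and 2 (0 and 0). In shControl cells none of the 41 proteoglycans and matricellular genes rose and 6 fell, and 7 acid hydrolases rose. Acid hydrolases summed to a mean of 3402.5 CPM in sham and 4379.3 CPM in irradiated shFXR cells, and to 4657.8 and 5035.9 CPM in shControl cells. Proteoglycans and matricellular genes summed to 5739.7 and 8147.1 CPM in shFXR cells, and to 5644.1 and 4733.0 CPM in shControl cells. TGFBI fell in shControl cells (-0.33 ± 0.08, adjusted p = 0.015), with a difference of 0.94 ± 0.12 (adjusted p = 0.00012). SERPINE2 was at 105, 83.6 and 96.7 CPM in sham and 108, 89.6 and 93.1 CPM in irradiated shControl libraries, and its difference was 1.08 ± 0.14 (adjusted p = 0.00014). GAA was at 200.1, 184 and 180.3 and 226, 219 and 182 CPM, with a difference of 0.72 ± 0.11 (adjusted p = 0.00061). MEG3 was at 5.8, 4.29 and 7.82 and 9.48, 5.95 and 4.45 CPM, and its difference was 1.61 ± 0.29 (adjusted p = 0.0018). These 4 differences were also called with the GC offset, at 0.89, 1.22, 0.40 and 1.61 (adjusted p = 0.00028, 0.00012, 0.019 and 0.0036). That of GAA was thus smaller with the offset. Those of GPC1, AGRN, ADAMTS7, ITGA3, MAN2B1, ARSA, COL6A2 and SULF2 were called without the offset and not with it.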

How the data were processed

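RNA was measured by poly-A selected RNA sequencing with random hexamer priming, per the labels' protocols, in 12 libraries of A549 cells. The deposited table holds raw counts per gene; the build hg38 and DESeq2 1.20.0 are named in the submitters' processing notes, while aligner, counting tool and strand setting were not given in the sources used here. All 58735 gene identifiers and positions equal GENCODE 29 (Ensembl 94); a current symbol was found for 58207.

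Of these genes 33302 were counted at least once, and 16053 (13299 protein-coding) passed filterByExpr (minimum count 10, minimum total count 15). edgeR 4.0.16 in R 4.3.3 fitted all 12 libraries with 1 coefficient per group, TMM scaling and the quasi-likelihood F test (residual degrees of freedom 8, common coefficient of biological variation 0.0874), for radiation in each line and for the difference of responses. Calls use a Benjamini-Hochberg adjusted p under 0.05 over all tested genes, and a standard error is the absolute change over the root of its F statistic. The fit was tested on simulated data. Gene lists are described by counts and medians, without a test.

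Genes named come from 24 fixed ones, the 12 largest protein-coding rises and falls with separate groups at a mean of at least 5 CPM, the 6 largest rises and 4 largest falls among noncoding genes and among placeholder names at 1 CPM, and up to 3 called members of each role with up to 2 in the other direction; a few of these genes are not reported here. The genes, lists and alternatives were chosen with earlier results of these data known. Settings changed 1 at a time were the scaling (RLE or total counts), the filter (none or a mean of at least 5 CPM), protein-coding genes only, no mitochondrially encoded genes, only the 6 shFXR libraries, the replicate number as a block, DESeq2 1.42.0, limma 3.58.1 voom with sample weights, and leaving out each library. An offset for transcript GC content was added after seeing the data. Between sham and irradiated shFXR libraries of the same number, deviations from the group mean correlated at -0.01, -0.05 and -0.04, so the numbers were not used as pairs. Replicates differed beyond sampling noise (chi-square per degree of freedom 2.49 to 6.94 between shFXR replicates, 6.34 to 24.6 between shControl replicates). Promoters were searched in RefSeq windows of GRCh38.p14.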

Additional observations from a re-analysis of the deposited data

Results flagged for a closer look

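Of 66 genes, the fixed ones and those with the largest changes in shFXR cells, 47 had a radiation response that differed between the lines. By the test of the difference itself (edgeR, adjusted p under 0.05), 24 were higher and 23 lower in shFXR cells. Of the other 149 list members chosen by rule, 92 had a called difference. Over all genes tested the difference was called higher for 7.31% and lower for 7.67%. Apart from the 24 fixed genes, the genes were chosen by their response in these same shFXR libraries, which favours a called difference. Values of a few of these genes are not reported here. Each value is the response of the shFXR line less that of the shControl line on the log2 scale, listed because of that test.

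Among proliferation genes the fall was larger in shFXR cells. The difference was -3.38 for NCAPG, -3.16 for DEPDC1, a mitotic regulator, -2.65 for DLGAP5, a spindle protein, -2.62 for MKI67, -2.52 for GTSE1 and for KIF20A, -2.51 for NEK2 and -2.49 for SHCBP1, a midbody protein. It was -2.42 for NUF2, -2.20 for CCNA2, -2.19 for HMMR, a spindle and hyaluronan-binding protein, -2.15 for KIF2C, -2.12 for TOP2A, -2.03 for KIF18B, -1.80 for CDK1, -1.46 for HMGB2, -1.11 for CCNB1 and -0.92 for LMNB1. CCND1 gave -0.76 without a called fall in either line: -0.12 ± 0.12 in shFXR cells and a rise of 0.65 ± 0.12 in shControl cells. FAM111B gave -2.73, FAM72D -2.10 and FAM72B -1.28; both FAM72 genes are copies that can share reads with relatives.

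The response was higher in shFXR cells for matrix and secreted genes, by 1.64 for SMOC1, 1.48 for COL1A1, 1.39 for COL7A1, 1.27 for SEMA3B, 1.08 for SERPINE2, 0.92 for IGFBP7, 0.85 for FN1 and 0.47 for SULF2. For VIM, the mesenchymal filament, it was higher by 0.85. Mean sham levels of SMOC1, COL1A1, COL7A1, SEMA3B and IGFBP7 were lower in shFXR than in shControl cells, and those of SERPINE2, FN1, VIM and SULF2 higher. IGFBP7 went from 9.93 to 20.5 CPM in shFXR and from 22.3 to 24.3 CPM in shControl cells, and SULF2 from 29.8 to 76.1 and from 15.8 to 29.1 CPM. A higher response is thus not always a higher level. For the genes that follow the response was higher too. It was higher by 2.22 for TPTEP2, 2.18 for ENSG00000279821, 1.61 for MEG3, 1.49 for TMEM198, 1.45 for ASIC3, 1.42 for SEC31B, 1.40 for FAT3, 1.33 for DNHD1, 1.27 for CCDC146, 1.07 for FAM228B, 0.89 for CD82, 0.72 for GAA and for TMEM38A, 0.62 for BBC3 and 0.41 for GLB1.

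With the GC offset, whose trend ran in opposite directions in the lines, the differences of BBC3, CD82, FAM228B, SULF2, TMEM198 and TMEM38A were no longer called (adjusted p = 0.38, 0.076, 0.058, 0.058, 0.055 and 0.15). FN1 lost its call without shControl irradiated replicate 3 (adjusted p = 0.053) or shFXR sham replicate 3 (0.052), TPTEP2 without shFXR irradiated replicate 3 (0.052), and SULF2 without shControl sham replicate 1 (0.054) or shFXR sham replicate 3 (0.052). FAM228B and TMEM38A each lost it without most single libraries (adjusted p = 0.051 to 0.15 over the alternatives that ended it, the GC offset among them).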

How the results depend on the processing

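No alternative reversed the direction of a called response or called difference of a named gene. The balance of higher against lower genes turned under several. Of the 3379 genes called in irradiated against sham shFXR cells (1744 higher and 1635 lower), RLE scaling gave 1692 higher and 1697 lower, total counts 1335 and 1863, no filter 1577 and 1798, DESeq2 1657 and 1709 and the GC offset 1401 and 1686. With only the 6 shFXR libraries 5065 were called (2393 higher and 2672 lower), and with voom sample weights 6298 (3324 and 2974), with 4300 differences between the lines against 2405. Spread among replicates was larger in the shControl line, and its part in these larger counts was not tested. The GC offset gave 1327 differences, and a filter at a mean of 5 CPM, which tests fewer genes, 214 changes of at least 2-fold against 530. Leaving out 1 library gave 2121 to 4250 genes called, 1053 to 1976 higher, 1055 to 2274 lower, 410 to 542 of at least 2-fold and 1168 to 3265 differences. The called genes were 2236 without shFXR sham replicate 1 (1099 higher), 2125 without sham replicate 3 (1053 and 1072), 2238 without irradiated replicate 1 (1160 and 1078) and 2121 without irradiated replicate 3 (1066 and 1055). The differences were 1456 without shFXR sham replicate 3, 1251 without irradiated replicate 3 and 1168 without shControl irradiated replicate 3. These counts come from fewer samples.

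The replicate number gave no pairing, and with it as a block 3236 genes were called (1692 higher and 1544 lower), 526 of them at least 2-fold, with 2358 differences. Of the responses of the 215 named genes, 201 kept their call under the GC offset and 14 lost it; of their differences 33 were lost and 7 gained. Genes near 1 CPM rest on few counts per library, which limits noncoding and placeholder genes most.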

Other observations

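Beside the counts in this section, 10.9% of all genes tested rose and 10.2% fell. Hypoxia and glycolysis genes fell as a minority, 10 of 28 with none rising, with a median log2 fold change of -0.22. LDHA, which makes lactate, was at 2240.4, 2262 and 2233 CPM in sham and 1492, 1422 and 1459 CPM in irradiated shFXR libraries (-0.62 ± 0.09, adjusted p = 3e-05). PFKFB3, which speeds glycolysis, was at 205, 181 and 197 and 132, 146 and 119 CPM (-0.55 ± 0.08, adjusted p = 3.7e-05). PGK1, phosphoglycerate kinase, was at 696, 667 and 634 and 532, 481 and 500.5 CPM (-0.40 ± 0.08, adjusted p = 0.0016). The groups were separate for these enzymes. Targets of NRF2, the regulator of antioxidant genes that A549 cells are known to keep active, split: of 22, 6 fell, GCLC (-0.40 ± 0.09), GSR (-0.32 ± 0.07) and AKR1B10 (-0.32 ± 0.10) among them, and 2 rose, ABCC3, a transporter (0.63 ± 0.10), among them. The falls were 27.3% of the role and the rises 9.09%, the latter near the share of all genes. The 6 falls were 2 without sham replicate 1, sham replicate 3, irradiated replicate 1 or irradiated replicate 3, AKR1B10 being among those lost. The 2 rises were 1 without sham replicate 1 or 2 or irradiated replicate 1 or 2.

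Of 29 interferon-stimulated genes 7 rose, STAT2, a signal transducer of interferon (18.6 ± 1.7 to 32.7 ± 1.9 CPM, 0.81 ± 0.11, adjusted p = 1.5e-05), IFI6 (0.99 ± 0.18) and SAMD9L (0.98 ± 0.20) among them, and OAS3 fell (-0.66 ± 0.12); without irradiated replicate 3 there were 4 rises. Sterol genes gave 5 rises (3 without sham replicate 1 or irradiated replicate 3), TM7SF2 (0.70 ± 0.12) and MSMO1 (0.34 ± 0.09) among them, and 1 fall in 24: HMGCS1, an early enzyme of the pathway, was at 76.3, 75.5 and 81.3 CPM in sham and 53.8, 54.8 and 52 CPM in irradiated libraries (-0.54 ± 0.10, adjusted p = 0.00057), while it rose in shControl cells (0.50 ± 0.10, adjusted p = 0.0028; difference -1.04 ± 0.14, adjusted p = 0.0002). Of 20 ATF4 and unfolded protein response genes 6 rose, SESN2 (0.54 ± 0.11), CALR (0.37 ± 0.08) and VLDLR (0.33 ± 0.10) among them, a count that was 2 with total counts and 2 to 3 without any 1 of sham replicates 1 to 3 or irradiated replicates 1 and 2. VLDLR had an adjusted p of 0.064 to 0.081 without sham replicate 1 or 3 or irradiated replicate 1 or 2.

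Contractile actin genes gave 2 rises and 3 falls in 26 (7.69% and 11.5%), near the 10.9% and 10.2% of all genes. The rises were ACTA2 (0.84 ± 0.09) and FLNC (0.92 ± 0.23), and the falls TPM4 (-0.42 ± 0.06), TPM3 (-0.26 ± 0.08) and VCL (-0.22 ± 0.07). The 3 falls were 1 without sham replicate 2 or 3 or irradiated replicate 2 or 3: TPM3 had an adjusted p of 0.062 to 0.11 without sham replicate 2 or 3 or irradiated replicate 2 or 3, and VCL had an adjusted p of 0.051 to 0.17 without sham replicate 1, 2 or 3 or irradiated replicate 2 or 3, and lost its call with the replicate block (adjusted p = 0.051) and a filter at a mean of 5 CPM (0.055). Epithelial adhesion and keratin genes gave 5 rises, KRT19 (0.60 ± 0.11), KRT7 (0.33 ± 0.08) and F11R (0.33 ± 0.09) among them, and 2 falls, PKP3 (-0.34 ± 0.09) and TJP1 (-0.26 ± 0.08), in 24. The role held 20.8% rises and 8.33% falls, beside 10.9% and 10.2% of all genes. The rises were 2 without irradiated replicate 3 and 3 without sham replicate 3, and the falls 0 without either. KRT7 lost its call with the GC offset (adjusted p = 0.16) and without irradiated replicate 3 (0.052), F11R had an adjusted p of 0.063 without sham replicate 3, PKP3 an adjusted p of 0.051 to 0.096 without sham replicate 3 or irradiated replicate 3, and TJP1 an adjusted p of 0.072 to 0.13 without sham replicate 2 or 3 or irradiated replicate 3. Among 21 quiescence and FOXO targets 4 rose, led by PIK3IP1 (0.76 ± 0.14), and 1, IRS2, fell (-0.27 ± 0.08), with 1 rise left under the GC offset and 1 to 2 without any 1 of the 6 shFXR libraries; IRS2 had an adjusted p of 0.052 to 0.14 without sham replicate 1 or 3 or irradiated replicate 1 or 3. Of 84 ribosomal protein genes 1 rose, RPS27L, a p53 target (0.27 ± 0.09), and 3 fell, RPL39L (-0.74 ± 0.13), RPL26L1 (-0.36 ± 0.09) and RPL7L1 (-0.21 ± 0.07), all 4 of them relatives of the core ribosomal genes. RPS27L had an adjusted p of 0.058 to 0.13 without sham replicate 1, 2 or 3 or irradiated replicate 1 or 3, RPL26L1 an adjusted p of 0.055 without irradiated replicate 2, and RPL7L1 lost its call without any 1 of the 6 shFXR libraries (adjusted p = 0.062 to 0.18), with the GC offset, with the replicate block and with a filter at a mean of 5 CPM. Of 13 mitochondrially encoded mRNAs 3 rose, MT-ND5 (0.49 ± 0.10), MT-ND6 (0.55 ± 0.13) and MT-CO1 (0.41 ± 0.11), and all 13 had a positive log2 fold change (0.15 to 0.55); MT-ND5 and MT-ND6 lie on opposite strands, and the count of 3 was 10 without shControl sham replicate 2 and 12 with the 6 shFXR libraries alone. MT-CO1 had an adjusted p of 0.052 to 0.057 without sham replicate 1 or 2 or irradiated replicate 2.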
